A study of Mus musculus with 12 samples.

Results

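Astrocytes release proteins that drive the formation and maturation of synapses, and 10 genes of such proteins were followed here in astrocytes sorted from the mouse hippocampus. They were taken by gene symbol from the 56941 genes of the deposited table, and all 10 were found: the thrombospondins Thbs1, Thbs2, Thbs3 and Thbs4, Sparc and its relative Sparcl1, the glypicans Gpc4, Gpc5 and Gpc6, and Chrdl1. The libraries came from adult naive male mice. One genotype, labelled cKO, was GfapcreERT2:Tnfrsf1b fl/fl, in which a Cre-ERT2 recombinase under the Gfap promoter acts on a floxed Tnfrsf1b, the gene of the TNF receptor TNFR2. The other, labelled Ctrl, was Tnfrsf1b fl/fl without the recombinase, so the floxed allele is common to both groups. Cells were sorted on ACSA-2, an astrocyte surface antigen. Each genotype had 3 A numbers, A1, A2 and A8 in Ctrl and A4, A9 and A10 in cKO, each with a library S1 and a library S2. The labels define neither letter and do not say that A numbers are animals, so p-values measure the spread between these units only. The labels give no tamoxifen schedule, and a Cre under the Gfap promoter acts only in cells in which that promoter is active.

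Thrombospondins are large secreted matrix proteins that act on neurons through the calcium channel subunit encoded by Cacna2d1 and promote the formation of structurally complete but postsynaptically silent synapses. The protein of Sparcl1, also called hevin, bridges adhesion proteins of the axon and the dendrite, and SPARC can oppose it. Glypicans are heparan sulphate proteoglycans held in the membrane by a lipid anchor, from which they can be shed; those of Gpc4 and Gpc6 recruit AMPA-type glutamate receptors to young synapses. Chordin-like 1, the product of Chrdl1, is a secreted antagonist of bone morphogenetic proteins and promotes synapse maturation through AMPA receptors that contain GluA2.

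S1 and S2 were averaged within each A number, and the 6 averages are called units below (n = 3 per genotype). Levels are FPKM, fragments per kilobase of exonic length assigned, scaled to library depth, so genes can be compared within a library. Depth recovered from the smallest steps of the values was 17311872 to 35323322 reads per library. Tnfrsf1b, the targeted gene, was listed at 0 in the units A2, A8, A9 and A10, and stood at 0.0275 FPKM in the Ctrl unit A1 and at 0.141 FPKM in A4, which is labelled cKO. The ablation could not be checked at these levels, so the groups are those the labels name. The highest value, that of the cKO unit A4, came from 10 and 22 reads in its libraries S1 and S2. A4 also had the highest summed level of microglial marker genes, 37.7 FPKM against 15.2 to 25.0 FPKM in the other units. Which cells gave the A4 value was not tested. A8 lay apart from the other Ctrl units in several of the genes below. Estimates of the tested factors without A4 and without A8 are therefore given with the genotype comparison.

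The 10 transcripts covered a wide range of levels. Sparcl1 averaged 2075 FPKM over the 12 libraries and was the 20th most abundant of all genes in the table. It was followed by Sparc (91.7 FPKM) and Gpc5 (53.3 FPKM), and then by Gpc4 (15.7 FPKM), Gpc6 (13.8 FPKM), Thbs4 (13.3 FPKM) and Chrdl1 (7.27 FPKM). Thbs3 (2.79 FPKM), Thbs1 (1.31 FPKM) and Thbs2 (0.854 FPKM) were lowest. The order from Sparcl1 through Sparc and Gpc5 to Gpc4 held in 6 of 6 units, with Sparcl1 on average 23.1-fold above Sparc. Gpc4 exceeded Gpc6 in 5 of 6 units and Gpc6 exceeded Thbs4 in 3 of 6, so these neighbours did not differ beyond their spread. Each of the remaining steps, from Thbs4 to Chrdl1, Thbs3, Thbs1 and Thbs2, held in 5 of 6 units. The SD of the log2 ratio exceeded its mean for Thbs4 over Chrdl1 (0.99 against 0.96), so that step too lay within the spread.

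**Figure D1:**
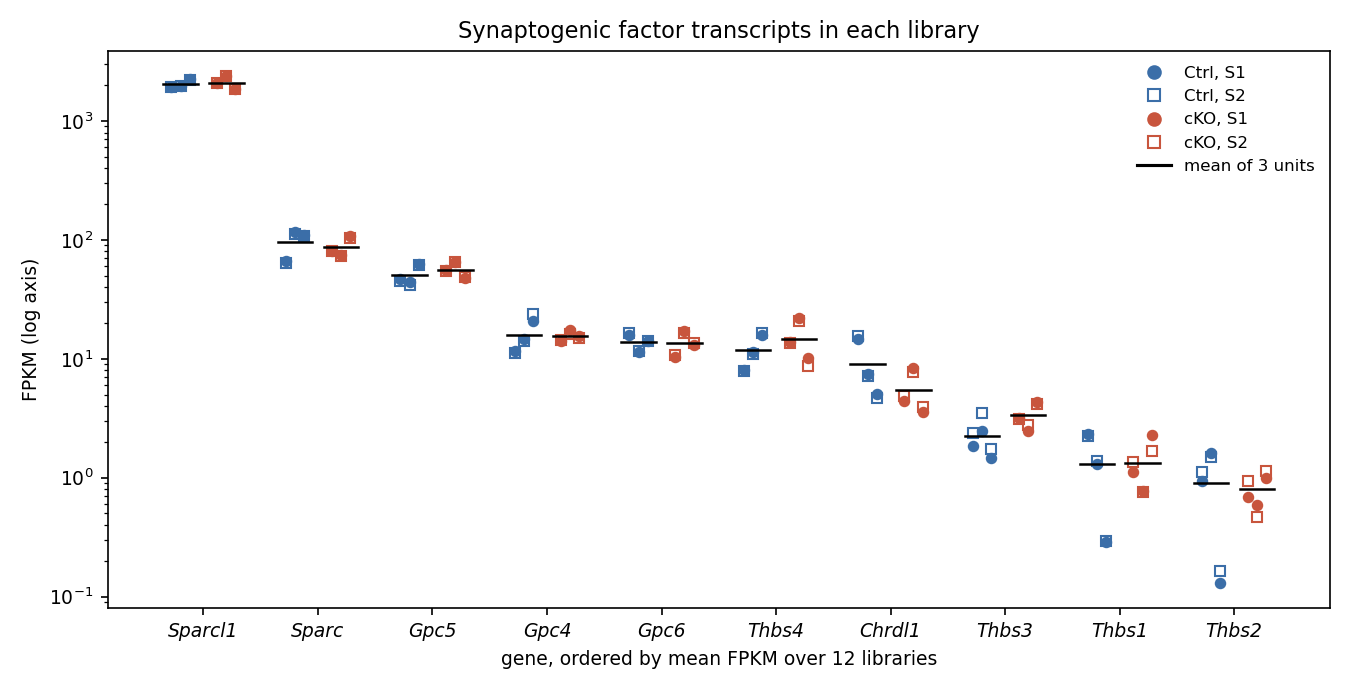
FPKM of the 10 genes (log axis) in each of the 12 libraries, with Ctrl in blue and cKO in red, filled circles for S1, open squares for S2 and black lines for the mean of the 3 units of a genotype. The colours overlap in every gene, S1 and S2 of one A number lie close together, and the lowest points of Thbs1 and Thbs2 are both libraries of the Ctrl unit A8.

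Among the thrombospondins, Thbs4 was the main transcript. Thbs4 (ENSMUSG00000021702, chromosome 13, start 92888098, end 92931326, minus strand), which encodes a pentameric thrombospondin, stood at 7.99, 11.2 and 16.1 FPKM in the Ctrl units A1, A2 and A8. In the cKO units A4, A9 and A10 it stood at 13.7, 21.3 and 9.41 FPKM. The highest unit was a cKO unit and the lowest a Ctrl unit, but the A10 value lay below 2 of the 3 Ctrl values. Thbs4 made up 56.3% to 88.8% of the summed FPKM of the 4 thrombospondins in a unit. Its share was lowest in A10 and highest in A8.

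Thbs3 (ENSMUSG00000028047, chromosome 3, start 89122487, end 89134144, plus strand), the other pentameric member, had 2.12, 2.996 and 1.59 FPKM in Ctrl and 3.17, 2.62 and 4.24 FPKM in cKO, in the same order of units. Only the A9 value fell within the Ctrl range, and the cKO mean of 3.35 ± 0.825 FPKM (SD, n = 3) stood above the Ctrl mean of 2.24 ± 0.709 FPKM (SD, n = 3). The exons of Thbs3 share 318 bases, or 6.59% of its length, with Mtx1 on the opposite strand, which averaged 4.54 FPKM. The strand setting of the counting is not given in the sources used here, so reads of that stretch cannot be assigned to one gene.

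Thbs1 and Thbs2 encode trimeric thrombospondins. Thbs1 (ENSMUSG00000040152, chromosome 2, start 117942357, end 117957614, plus strand) stood at 2.29, 1.34 and 0.289 FPKM in Ctrl and at 1.23, 0.766 and 1.98 FPKM in cKO. Thbs2 (ENSMUSG00000023885, chromosome 17, start 14885762, end 14914497, minus strand) stood at 1.02, 1.55 and 0.147 FPKM in Ctrl and at 0.809, 0.527 and 1.07 FPKM in cKO. Both were lowest in A8 and next lowest in A9, and the highest unit of each was a Ctrl unit. Thbs1 had 34 reads in its lowest library and Thbs2 had 18, against a floor of 3 reads. That floor corresponds to 0.0121 to 0.0247 FPKM for Thbs2 across the libraries. The 2 reads of a pair are counted separately here, so the fragments behind these counts are fewer. Thbs2 was the 1 gene of the 10 below the mean FPKM of 1 required for testing. An antisense noncoding gene, Gm29233, shares 208 exonic bases with Thbs1 and averaged 0.855 FPKM.

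The 250 bases before the RefSeq start sites of the members (assembly GRCm38.p6) were available for 6 of the 10 genes. Those of Thbs4 and Thbs3 are shown because they are the paralogs with the highest and second highest level in the family. Capitals mark GGGCGG, the core of a GC box, on either strand.
Thbs4, chr13:92794819-92795068, minus strand: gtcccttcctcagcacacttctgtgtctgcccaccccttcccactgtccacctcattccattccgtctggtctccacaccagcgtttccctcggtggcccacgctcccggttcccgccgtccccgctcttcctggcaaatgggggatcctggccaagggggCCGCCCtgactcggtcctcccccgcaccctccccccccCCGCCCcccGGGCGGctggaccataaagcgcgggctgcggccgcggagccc
Thbs3, chr3:89214930-89215179, plus strand: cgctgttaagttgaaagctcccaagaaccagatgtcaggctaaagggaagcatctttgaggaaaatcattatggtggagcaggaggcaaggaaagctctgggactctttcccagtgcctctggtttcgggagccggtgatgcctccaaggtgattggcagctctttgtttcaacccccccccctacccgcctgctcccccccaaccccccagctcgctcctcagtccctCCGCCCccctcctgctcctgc
The Thbs4 window held 3 such matches and 19 CG dinucleotides, and the Thbs3 window 1 match and 6 CG dinucleotides, where the median of 32851 promoter windows of that length is 6. GGGCGG was present on either strand in 32.7% of those windows. The letters TATAAA, searched on both strands, were in neither window and in 12.4% of all. These matches are descriptions of sequence and were not related to the expression values by a test.

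**Figure D2:**
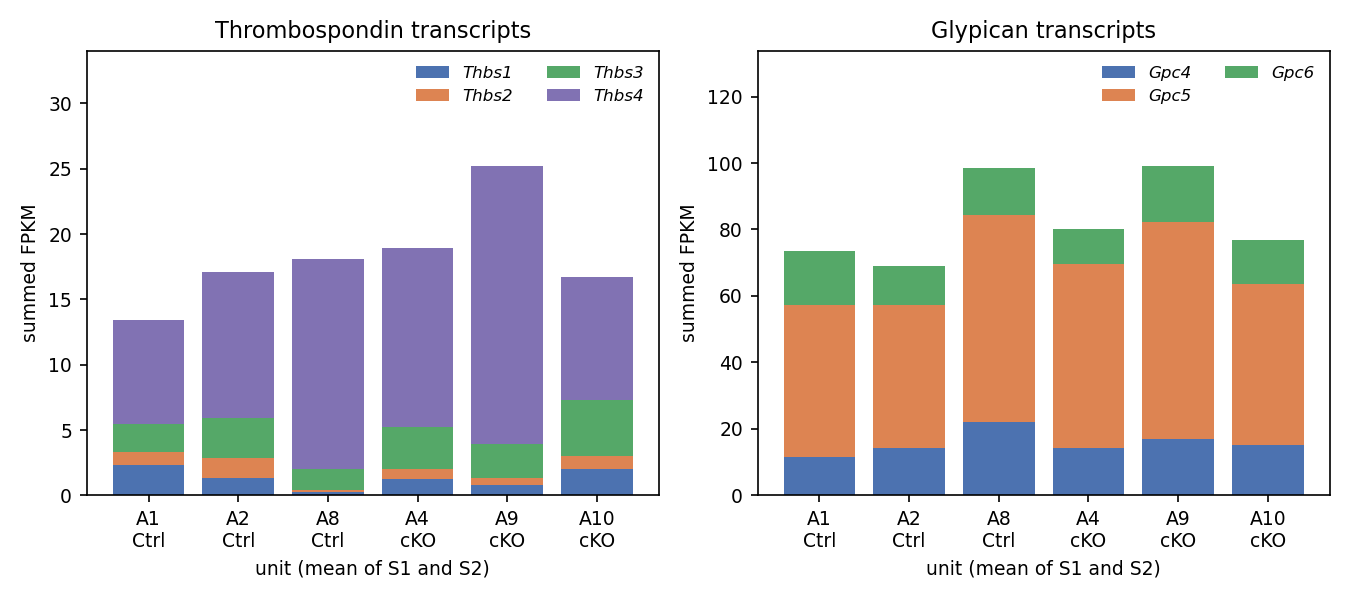
Summed FPKM of the 4 thrombospondins (left) and of the 3 glypicans (right) in each unit, the mean of S1 and S2, with the contribution of each gene stacked. Thbs4 is the largest part of every thrombospondin bar, between 56.3% and 88.8%, and Gpc5 the largest part of every glypican bar, between 62.5% and 68.9%.

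In the SPARC family, Sparcl1 (ENSMUSG00000029309, chromosome 5, start 104226977, end 104261599, minus strand) was the steadiest gene of the 10. It stood at 1934, 1967 and 2226 FPKM in the Ctrl units A1, A2 and A8 and at 2085, 2385 and 1853 FPKM in the cKO units A4, A9 and A10. The highest and the lowest unit were both cKO, and the highest was 1.29-fold above the lowest. The SD of Sparcl1 between units was 0.15 on the log2 scale, and 14.0% of tested genes had a smaller one. Sparc (ENSMUSG00000018593, chromosome 11, start 55285326, end 55314009, minus strand) stood at 65.7, 115 and 109 FPKM in Ctrl and at 80.8, 73.8 and 106 FPKM in cKO. Here A1 was low and A2 high within Ctrl, and every cKO value lay between them.

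Because SPARC can oppose hevin, the ratio of Sparcl1 to Sparc was taken per unit. It was 29.5, 17.1 and 20.5 in Ctrl, and 25.8, 32.3 and 17.5 in the cKO units. As a log2 ratio the Ctrl mean was 4.43 ± 0.40 and the cKO mean 4.59 ± 0.44 (SD, n = 3 each), a difference of 0.17 with p = 0.7 (exact permutation test, two-sided, 20 arrangements, smallest possible p 0.1). The units of the genotypes overlapped, and the difference was smaller than the spread within either genotype. It was -0.01 without A2 and -0.03 without A9.

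Of the glypicans, Gpc5 was the most abundant, with 62.5% to 68.9% of the family's summed FPKM. Gpc5 (ENSMUSG00000022112, chromosome 14, start 115329647, end 116762591, plus strand) stood at 46.0, 43.1 and 62.1 FPKM in Ctrl and at 55.2, 65.4 and 48.2 FPKM in cKO. An antisense noncoding gene, Gm20713, shares 107 exonic bases with it, 2.40% of its length, and averaged 37.7 FPKM. Gpc4 (ENSMUSG00000031119, chromosome X, start 51141898, end 51254129, minus strand) stood at 11.4, 14.3 and 22.1 FPKM in Ctrl and at 14.3, 16.9 and 15.3 FPKM in cKO. Its lowest and its highest unit were both Ctrl, A1 and A8. Gpc6 (ENSMUSG00000058571, chromosome 14, start 117162727, end 118213956, plus strand) stood at 16.2, 11.6 and 14.2 FPKM in Ctrl and at 10.5, 16.8 and 13.3 FPKM in cKO. Its highest and lowest unit were both cKO. The ratio of Gpc4 to Gpc6, the glypicans named for AMPA receptor recruitment, ran from 0.707 in A1 to 1.56 in A8. Its log2 value differed by 0.06 between genotypes (exact permutation p = 0.9, two-sided, n = 3 each), and by -0.24 without A1 and -0.04 without A4.

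Chrdl1 (ENSMUSG00000031283, chromosome X, start 142068670, end 142177258, minus strand) varied most between units of the 9 tested genes, with an SD of 0.62 on the log2 scale. It stood at 15.1, 7.27 and 4.88 FPKM in the Ctrl units A1, A2 and A8 and at 4.64, 8.04 and 3.75 FPKM in the cKO units A4, A9 and A10. A1 lay far above the others, while A8 and A4 were nearly alike. The Ctrl mean was 9.07 ± 5.32 FPKM and the cKO mean 5.48 ± 2.26 FPKM (SD, n = 3 each).

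The genotype comparison asked whether the libraries labelled cKO differed in these factors. In none of the 9 tested genes did they pass: limma adjusted p ran from 0.781 to 0.997, over all 17540 genes tested. At an adjusted p under 0.05, 0 of 9 members were called, where the share of all tested genes was 0.00%. At an unadjusted p under 0.05 it was again 0 of 9, where the share of all tested genes was 7.69%, and the smallest adjusted p of any gene was 0.136. In 10 of 10 members the cKO units overlapped the Ctrl units; 13.0% of all tested genes did not overlap, 5.73% with cKO higher and 7.26% with cKO lower. The median log2 fold change of the 9 genes was 0.04, beside -0.01 over all tested genes.

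Estimates and intervals set out what sizes remained possible. Chrdl1 had the log2 fold change of greatest size, -0.56 (SE 0.41, 95% interval -1.53 to 0.41, limma adjusted p = 0.849). Without the Ctrl unit A1 it was -0.16, and without A8 it was -0.89 (limma adjusted p = 0.404). Thbs3 followed at 0.44 (SE 0.26, 95% interval -0.17 to 1.04, limma adjusted p = 0.781), and was 0.29 without A8 or without A10. For Thbs4 the estimate was 0.29 (95% interval -0.51 to 1.08), but it was 0.00 without A9 and 0.06 without A1, and 0.52 without A8 and 0.55 without A10. For Gpc5 it was 0.16 (95% interval -0.26 to 0.59), and it ran from 0.05 without A9 and 0.06 without A2 to 0.32 without A8. Leaving out A4, the unit with the highest Tnfrsf1b level, gave -0.49 for Chrdl1, 0.46 for Thbs3, 0.30 for Thbs4 and 0.17 for Gpc5.

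The other tested factors had estimates nearer 0. Sparcl1, at 0.04, had the narrowest interval, -0.31 to 0.39, which is 0.805-fold to 1.31-fold. Sparc was at -0.13 (95% interval -0.70 to 0.45), Gpc6 at -0.05 (-0.53 to 0.43) and Gpc4 at 0.01 (-0.55 to 0.56). These 4 have no settled direction, since leaving out A9 turned Sparcl1 to -0.05, leaving out A2 turned Sparc to 0.02, leaving out A4 or A1 turned Gpc6 to 0.10 or 0.05, and leaving out A1, A2 or A9 turned Gpc4 to -0.19, -0.04 or -0.05. Without A8 the estimates were 0.10 for Sparcl1, -0.02 for Sparc, -0.04 for Gpc6 and 0.26 for Gpc4. Without A4 they were 0.04 for Sparcl1, -0.08 for Sparc and 0.06 for Gpc4. Thbs1 was at 0.08 with the widest interval, -0.97 to 1.13, and its estimate was -0.29 without A8, -0.11 without A10 and 0.09 without A4. For Thbs2, which was not tested, the difference of the log2 group means was -0.02. A change of up to 2.19-fold upward in Thbs1 or down to 0.346-fold in Chrdl1 therefore lies inside the intervals, and absence of a difference was not shown. Changes are on the log2(FPKM + 1) scale, which understates those of low genes such as Thbs1 and Thbs3.

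**Figure D3:**
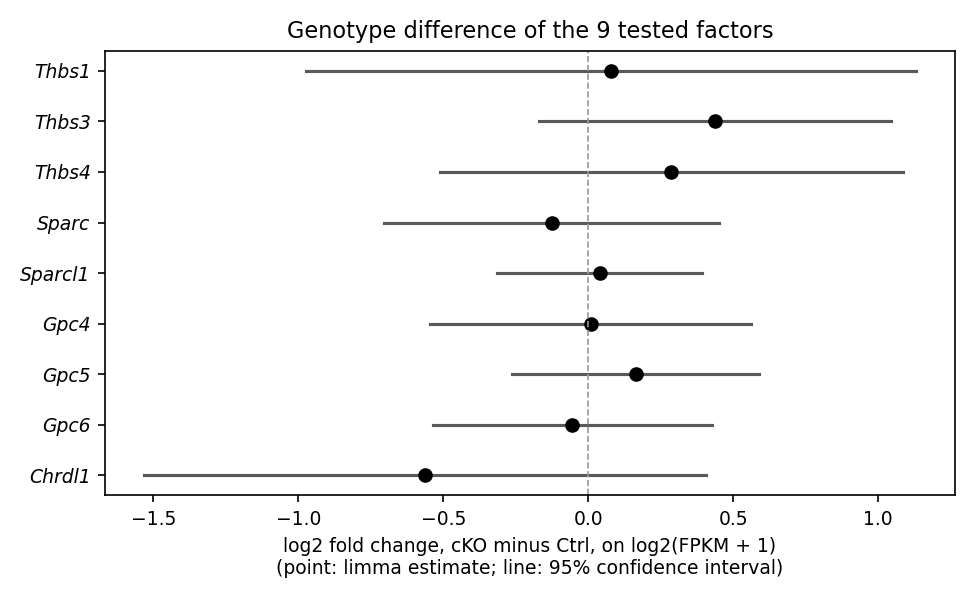
Log2 fold change of cKO against Ctrl for the 9 tested factors, with the limma estimate as a point and its 95% confidence interval as a line, on the log2(FPKM + 1) scale. Every interval crosses 0; Sparcl1 has the narrowest, -0.31 to 0.39, and Thbs1 the widest, -0.97 to 1.13.

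The factors differed between units far more than between S1 and S2 of one unit. The SD between units within a genotype was 19.3 times the SD between S1 and S2 for Sparcl1, 11.5 times for Sparc, 9.59 times for Chrdl1 and 8.14 times for Thbs4. It was lowest for Thbs3, at 2.06 times, where S1 and S2 of one unit differed by up to 0.38 on the log2 scale. The median SD between units of the 9 genes was 0.33, beside 0.32 over all tested genes.

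Several members followed the same order of units. Thbs4, Sparcl1 and Gpc5 were all highest in A9 and second highest in A8. Over the 6 units of log2(FPKM + 1), Pearson's r was 0.95 between Thbs4 and Sparcl1, 0.90 between Sparcl1 and Gpc5 and 0.88 between Thbs4 and Gpc5. Thbs1 went the other way, with r of -0.91 to Gpc4, -0.84 to Thbs4, -0.82 to Sparcl1 and -0.79 to Gpc5. These are descriptions over 6 points that share libraries and depth, without a test. The summed FPKM of the 12 astrocyte markers was 5409 in A9 and 4871 in A8, the highest values of the 6 units, and lowest in A1 at 3912. Thbs4 was also lowest in A1, but Sparcl1 was lowest in A10 and Gpc5 in A2. The sum is led by Slc1a2, and not every marker followed it. S100b was lowest in A8 (57.4 FPKM), and Gfap was highest in A10 (156 FPKM) and at 62.0 FPKM in A8. The endothelial sum was 5.25 FPKM in A8, 6.11 in A10 and 7.42 in A9, against 40.6 to 60.8 in A1, A2 and A4. The ependymal sum ran nearly opposite to Thbs4, Sparcl1 and Gpc5, at 35.7 FPKM in A9, 44.4 in A8, 103 in A4, 141 in A10, 209 in A2 and 216 in A1. Of the 113 list genes, the most unlike Gpc5 was the ependymal marker Rsph1 (r = -0.99) and the most unlike Thbs4 the ependymal marker Tmem212 (r = -0.95). The part of these cells in the patterns was not tested, and in a bulk sample fewer cells of a type and less RNA per cell cannot be told apart.

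**Figure D4:**
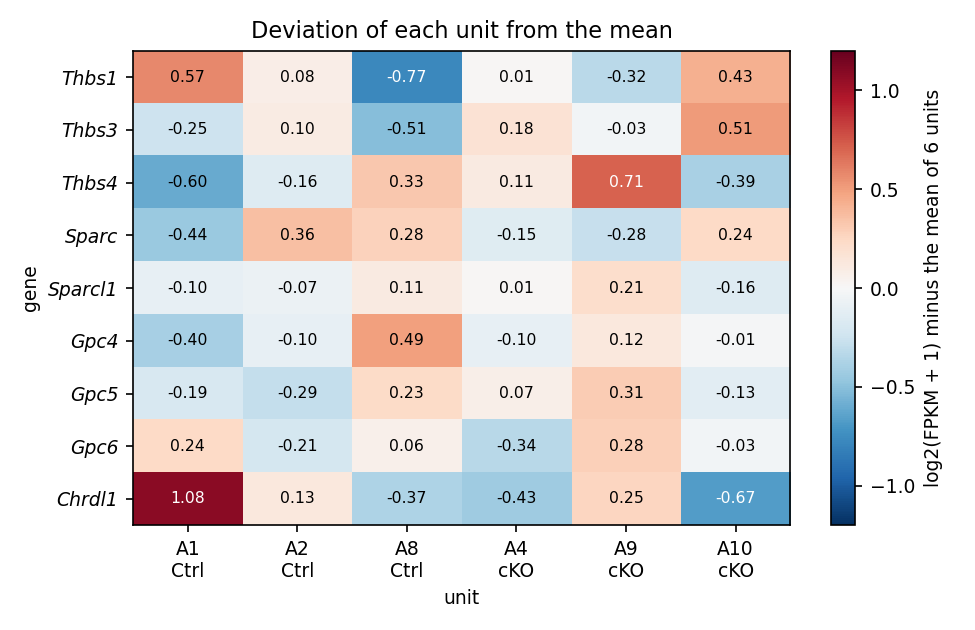
Log2(FPKM + 1) of each of the 9 tested factors in each unit minus its mean over the 6 units, red above and blue below, with the value printed in each cell. Thbs4, Sparcl1 and Gpc5 are above their mean in A8, A4 and A9, Thbs1 is below its mean in A8 and A9, and Chrdl1 in A1 is 1.08 above its mean.

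Among 113 genes of the fixed lists, the gene most like each factor over the 6 units was named by Pearson's r. For Gpc5 it was Bmpr1b, a bone morphogenetic protein receptor (r = 0.97), followed by the glutamate transporter Slc1a3 (0.97). For Thbs3 it was Gfap, the astrocyte filament gene (0.95), and for Gpc4 the integrin Itgav (0.93). For Thbs1 it was Bmp6, a bone morphogenetic protein (0.91), followed by the smooth muscle actin Acta2 (0.88). Sparc was most like the heparan sulphate enzyme Hs6st1 (0.90), Gpc6 was most like Camk2a (0.90), and Chrdl1 was most like Cacna2d2 (0.80). Each is the largest r of 113 candidates over only 6 points, a choice that favours high values, and none was tested.

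The genes on which these factors act, or to which they bind, were taken as a list of 34 partners, of which 24 were tested. None passed the adjusted threshold. At an unadjusted p under 0.05, 0 were higher and 2 lower in cKO, where the shares of all tested genes were 2.98% and 4.71%. Over all tested genes that is 523 higher and 826 lower, and with upper quartile scaling it was 761 higher and 625 lower. The median log2 fold change of the partners was 0.04. The 2 lower genes were Ptprd, a receptor phosphatase of the family that binds glypicans, and Cacna2d2, a relative of the thrombospondin receptor gene Cacna2d1. Ptprd stood at 23.8, 23.9 and 13.2 FPKM in Ctrl and at 8.13, 9.66 and 12.1 FPKM in cKO, without overlap (log2 fold change -0.93, SE 0.26, limma adjusted p = 0.434). Cacna2d2 had a Ctrl mean of 9.31 ± 1.60 FPKM and a cKO mean of 5.99 ± 1.92 FPKM (SD, n = 3 each); limma gave an adjusted p of 0.629.

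Partners at high level included the thrombospondin receptor Lrp1 and the small GTPase Rac1. Lrp1 had a Ctrl mean of 77.4 ± 6.21 FPKM and a cKO mean of 82.6 ± 2.90 FPKM, and Rac1 61.3 ± 10.2 and 57.2 ± 3.92 FPKM (SD, n = 3 each); the units of both overlapped. Gria2, the gene of the AMPA receptor subunit GluA2, stood at 40.9, 32.2 and 52.7 FPKM in Ctrl and at 56.9, 56.1 and 53.7 FPKM in cKO, with a log2 fold change of 0.43, with SE 0.18 and limma adjusted p = 0.649. All its cKO units lay above all Ctrl units, as in 2 of the 24 tested partners, where 5.73% of all tested genes did so. Cacna2d1 itself averaged 2.54 FPKM over the libraries and overlapped between genotypes.

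Of 18 relatives of the factors, 10 were tested and none passed the adjusted threshold. At an unadjusted p under 0.05, 2 of the 10 were lower and 0 higher in cKO, where 4.71% and 2.98% of all tested genes were, and the median log2 fold change was -0.13. The lower genes were Spock3 and Spock1, which encode testicans, proteoglycans of the SPARC family. Spock3 stood at 8.39, 11.3 and 5.78 FPKM in Ctrl and at 1.27, 1.74 and 3.17 FPKM in cKO, a log2 fold change of -1.64, with SE 0.31 and limma adjusted p = 0.320. Spock1 stood at 8.45, 7.43 and 5.58 FPKM in Ctrl and at 2.26, 2.56 and 4.95 FPKM in cKO, a log2 fold change of -0.98, with SE 0.28 and limma adjusted p = 0.446. The groups did not overlap in either, as in the 7.26% of all tested genes with every cKO unit lower. Spock2, the most abundant relative, had a Ctrl mean of 22.1 ± 7.89 FPKM and a cKO mean of 14.3 ± 7.57 FPKM and overlapped. Fstl1 (11.7 ± 3.12 and 13.0 ± 1.16 FPKM) and the BMP modulator Twsg1 (8.49 ± 1.34 and 7.91 ± 1.40 FPKM) overlapped as well (SD, n = 3 each).

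Other astrocyte-released factors that act on synapses formed a list of 7, of which 3 were tested and none passed the adjusted threshold. Il33, the gene of the cytokine interleukin-33, stood at 101, 97.2 and 77.8 FPKM in Ctrl and at 48.5, 61.9 and 58.1 FPKM in cKO. Its groups did not overlap, as in the 7.26% of all tested genes with every cKO unit lower. Its log2 fold change was -0.70, with SE 0.15 and limma adjusted p = 0.333. It was the 1 gene of the 3 with an unadjusted p under 0.05, where 4.71% of all tested genes were lower in cKO. A list of 3 tested genes is too short to set against that share. Tgfb2 averaged 11.4 ± 2.84 and 11.7 ± 1.27 FPKM and Tgfb3 1.83 ± 0.207 and 1.60 ± 0.383 FPKM in Ctrl and cKO (SD, n = 3 each), and both overlapped.

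Heparan sulphate enzymes and genes that release or cleave the factors formed a list of 15, of which 11 were tested and none passed the adjusted threshold. At an unadjusted p under 0.05, 2 of the 11 were lower and 0 higher in cKO, beside 4.71% and 2.98% of all tested genes, and the median log2 fold change was 0.03. Adamts4, a secreted protease of matrix proteoglycans, stood at 10.9, 15.9 and 5.83 FPKM in Ctrl and at 1.78, 2.72 and 4.43 FPKM in cKO (log2 fold change -1.54, SE 0.39, limma adjusted p = 0.380). Sulf2, which removes sulphate groups from heparan sulphate, stood at 15.5, 15.4 and 6.98 FPKM in Ctrl and at 3.99, 3.56 and 6.65 FPKM in cKO (log2 fold change -1.21, SE 0.34, limma adjusted p = 0.440). In both the groups did not overlap (7.26% of all tested genes were lower without overlap), and A8 was the Ctrl unit closest to cKO. Without A8 the log2 fold changes of Adamts4, Sulf2, Spock3, Il33 and Ptprd were -1.89, -1.56, -1.86, -0.82 and -1.198, with limma adjusted p from 0.128 to 0.133. Without A4 they were -1.31, -1.13, -1.45, -0.60 and -0.80, with limma adjusted p from 0.797 to 0.946. Spock1 was at -1.12 without A8 (limma adjusted p = 0.221) and at -0.81 without A4 (limma adjusted p = 0.946). Gpld1, whose enzyme can cut the lipid anchor of glypicans, had a Ctrl mean of 44.1 ± 3.44 FPKM and a cKO mean of 47.0 ± 4.83 FPKM (SD, n = 3 each). The heparan sulphate enzymes Extl3 (19.6 ± 1.73 and 22.5 ± 1.75 FPKM) and Ndst1 (14.4 ± 4.13 and 13.0 ± 0.982 FPKM) also overlapped (SD, n = 3 each).

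**Figure D5:**
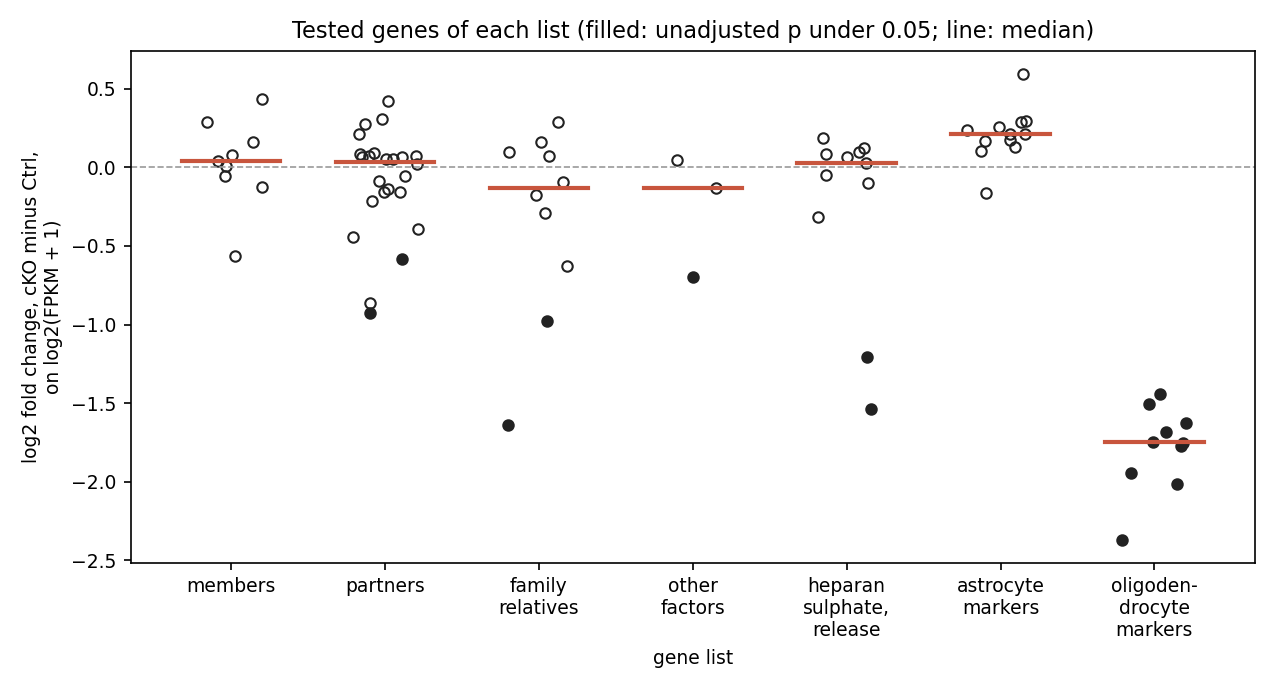
Log2 fold change of cKO against Ctrl for each tested gene of 7 lists, on the log2(FPKM + 1) scale, with filled points for an unadjusted p under 0.05 and a red line for the list median. The 9 members lie between -0.56 and 0.44 with 0 filled points, while the 10 oligodendrocyte markers are all filled and have a median of -1.75. Of all tested genes, 4.71% were lower and 2.98% higher in cKO at that p.

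Markers of other cells were measured beside these genes. The 10 oligodendrocyte markers summed to 1049 to 2273 FPKM in the Ctrl units and 302 to 720 FPKM in the cKO units. At an unadjusted p under 0.05, 10 of 10 were lower in cKO, where 4.71% of all tested genes were, and 0 passed the adjusted threshold. The 10 mark the same cell type and are not separate observations. None of the 10 was at 0 in every library. With the mean oligodendrocyte marker level as a covariate, the log2 fold change of Spock3 was -0.46, that of Spock1 0.00, that of Adamts4 -0.00, that of Sulf2 0.10, that of Ptprd 0.08 and that of Il33 -0.29, with limma adjusted p of at least 0.793. That of Gria2 became -0.07. The summed marker levels of the genotypes do not overlap, so these values cannot tell the genotype from the marker level.

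The summed levels of the precursor, microglial and neuronal markers did not overlap between genotypes either. At an unadjusted p under 0.05, Sox10 (log2 fold change -1.75) and Olig1 (-0.57) were lower in cKO. They were 2 of 5 tested precursor markers, beside 4.71% of all tested genes. P2ry12 (1.26) was higher in cKO, 1 of 3 tested microglial markers, beside 2.98% of all tested genes. The limma adjusted p of these genes ran from 0.391 to 0.433. The 12 astrocyte markers summed to 3912 to 4871 FPKM in Ctrl and 4723 to 5409 FPKM in cKO, led by Slc1a2 (1588 ± 83.7 and 1786 ± 198 FPKM, SD, n = 3 each) and Atp1b2. The median log2 fold change of these 12 was 0.21, with 11 positive and 1 negative, and none passed the adjusted threshold. The 8 mural markers summed to 72.9 to 119 and 98.4 to 150 FPKM, led by Vtn and Rgs5, and the 6 precursor markers to 127 to 167 and 77.5 to 106 FPKM, led by Olig1 and Olig2. The 5 ependymal markers, led by Foxj1 and Tmem212, summed to 44.4 to 216 FPKM in Ctrl and 35.7 to 141 FPKM in cKO. Sums were 5.25 to 60.8 and 6.11 to 45.1 FPKM for 8 endothelial markers (led by Cldn5 and Ly6c1), and 4.52 to 7.31 and 5.13 to 13.3 FPKM for 5 fibroblast markers (led by Col1a1 and Dcn). They were 15.2 to 19.1 and 21.2 to 37.7 FPKM for 8 microglial markers (P2ry12 among them) and 11.6 to 12.5 and 5.59 to 10.2 FPKM for 9 neuronal markers (led by Camk2a and Snap25). No marker of these lists was at 0 in every library. Sparc and Thbs1 are also made by vascular and other cells, and the part of such cells in the levels above was not tested.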

How the data were processed

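RNA sequencing values of 12 libraries were analysed. The FPKM values were made and deposited by the authors; FastQC, STAR, featureCounts and DESeq2 and the builds mm10 and GRCm38 are named in the submitters' processing notes, without versions. In every library the deposited FPKM, multiplied by the length column (kilobases), added up to 1000000. The coordinates printed are those of the deposited table. They matched GENCODE M21 (GRCm38) start and end for 2.77% of 51948 genes and for 0 of the 10 members, so their build is uncertain; promoter sequences are from RefSeq on GRCm38.p6. Rows sharing a symbol (147 symbols) were summed.

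Depth was recovered by taking the commonest low value as 1 read pair entered as 2 reads. Of the whole values from 1 to 20, 72.6% to 80.4% were even in a library. Counts of reads therefore stand for fewer fragments. At that step 82.9% to 86.4% of genes above 0 came out whole within 0.02 of a read. Floors of 3 reads cover counting error only.

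S1 and S2 of one A number (Pearson 0.980 to 0.984 over genes; libraries of different A numbers 0.788 to 0.896) were averaged. The 17540 genes whose mean FPKM reached 1 were tested on log2(FPKM + 1) with limma 3.58.1 in R 4.3.3 (variance trend, two-sided, Benjamini-Hochberg, threshold 0.05). The fit was also run on simulated units with known effects, drawn independently for each gene. That setting lacks the shared shifts of marker genes seen in these data, and no result above rests on it. Tables were made with Python 3.11.15.

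The members and lists were chosen with earlier results of these data known. Named genes were the members, Tnfrsf1b, from each list of related genes the 3 with the smallest unadjusted p and the 3 with the highest mean FPKM, from each marker list the 2 with the highest mean FPKM, and the genes most like each member. Some genes that this rule names are not reported here. Mtx1, Gm29233, Gm20713, Cacna2d1, Sox10, Rsph1, S100b, Slc17a7, Cd36 and the second most like genes were named after their values were seen. The alternatives covered the pseudocount, filter, scaling, variance model, units, libraries and a covariate.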

Additional observations from a re-analysis of the deposited data

How the results depend on the processing

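Of 178 alternative estimates for the 9 tested factors, 0 had a limma adjusted p under 0.05 (smallest 0.404), 160 kept their direction and 18 changed it. With each A number left out in turn, the log2 fold change ran from -0.29 to 0.39 for Thbs1, from 0.00 to 0.55 for Thbs4, from -0.38 to 0.02 for Sparc, from -0.05 to 0.13 for Sparcl1, from -0.19 to 0.26 for Gpc4, from 0.05 to 0.32 for Gpc5, from -0.21 to 0.10 for Gpc6, from 0.29 to 0.60 for Thbs3 and from -0.89 to -0.16 for Chrdl1. Chrdl1 kept its direction in all 20 alternatives and Thbs3 in all 19 that tested it. With the oligodendrocyte marker level as a covariate, Thbs4 was at -0.72, Sparc at 0.00, Sparcl1 at -0.27, Gpc4 at -0.53, Gpc5 at -0.40, Gpc6 at 0.01, Thbs1 at 1.28, Thbs3 at 1.10 and Chrdl1 at -0.17. Gpc4 was at -0.03 in S2 alone and at -0.01 with voom on recovered reads, and Gpc6 at 0.02 with upper quartile scaling; the cause was not tested. The log2 ratio of Sparcl1 to Sparc differed by -0.03 to 0.41 and that of Gpc4 to Gpc6 by -0.24 to 0.30 when each A number was left out.

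The count of genes called over the whole table was 0 and ran from 0 to 1 when each A number was left out; 1349 genes had an unadjusted p under 0.05, which was 2431 without A8 and 865 without A9. The 1 gene was called without A1. With 12 libraries and the A number as a random effect it was 112, and with the replicate block added it was 80; none of the 9 factors was among the calls. The replicate number only tells S1 from S2, so it ties no Ctrl unit to a cKO unit. Depth limits Thbs1 and Thbs2 most, at 34 and 18 reads in their lowest libraries.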

Other observations

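Several related genes were too low to be tested. Cd36, a receptor of thrombospondins, was listed at 0 in all 12 libraries. The neuronal pentraxins Nptx1 and Nptx2, which cluster AMPA receptors and of which Nptx1 is released under the action of Gpc4, and Itgb3 were among the low genes and were named after their values were seen. Nptx1 stood at 2.49, 0.632 and 0.734 FPKM in the Ctrl units A1, A2 and A8 and at 0.291, 0.0831 and 0 FPKM in the cKO units A4, A9 and A10. Nptx2 stood at 0.519, 0.523 and 1.05 FPKM in Ctrl and at 0.123, 0.0226 and 0 FPKM in cKO. Itgb3, an integrin subunit gene, stood at 0.788, 0.763 and 0.518 FPKM in Ctrl and at 0, 0.124 and 0.0152 FPKM in cKO. In these 3 genes every cKO unit lay below every Ctrl unit, as in the untested neuronal marker Slc17a7. They come from 41 list genes too low to test. The 7.26% of tested genes with this pattern is a share of other, higher genes and is no matched background. The 9 neuronal markers summed to 11.6 to 12.5 FPKM in Ctrl and 5.59 to 10.2 FPKM in cKO. Apart from Slc17a7, the units of each neuronal marker overlapped between genotypes. The part of neuronal RNA in the values of Nptx1, Nptx2 and Itgb3 was not tested.

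Bdnf, Tgfb1 and the Bmp genes were also named after their values were seen. Bdnf, the gene of a neurotrophin, was between 0.195 and 0.872 FPKM in the units and overlapped between genotypes, as did Tgfb1, between 0.225 and 1.55 FPKM. Of the bone morphogenetic protein genes on the partner list, Bmp7 (8.28 FPKM over the libraries) and Bmp6 (5.81 FPKM) were tested and overlapped, and Bmp2 and Bmp4 averaged 0.498 and 0.166 FPKM.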
